A study of Mus musculus with 2 samples.

Results

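The genes described here are 9 that mark or drive the epithelial-to-mesenchymal transition (EMT): the transcription factors Snai1, Snai2, Twist1, Twist2, Zeb1 and Zeb2 and the mesenchymal markers Vim, Cdh2 and S100a4. They were chosen by name, through the symbol or Entrez gene number of each probe, and they are 9 of 31165 genes and 14 of 45281 probes in the deposited table. Total RNA came from CT26, a mouse colon carcinoma line that grows as fibroblast-like cells. The group called control was CT26 transduced with the empty lentiviral hairpin vector pLKO.1, and the group called knockdown was CT26 transduced with pLKO.1-shCDK8, a hairpin against the Mediator kinase CDK8; the labels describe no second hairpin. Both were hybridised to Illumina MouseWG-6 v2.0 bead arrays, with 1 array in each group, so no value below has a replicate check and no p-value was computed.

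In EMT an epithelial cell loses its junctions and polarity and gains a motile, mesenchymal form. The SNAIL factors (Snai1 and its relative Snai2, also called Slug) and the ZEB factors are zinc finger repressors that bind E-box sequences in promoters of epithelial genes such as E-cadherin, and the TWIST factors are basic helix-loop-helix proteins that bind E-boxes as dimers. Vimentin (Vim), an intermediate filament protein, N-cadherin (Cdh2), an adhesion receptor, and the calcium-binding protein S100a4 are read as signs of the mesenchymal end of the scale. The series title concerns CDK8, hepatic metastasis and metalloproteinase genes, and the comparison of these arrays asks whether EMT genes differ with the hairpin.

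All 9 genes were detected on both arrays, and Snai1 was the only one at least 1.5-fold apart between them. Snai1 was 1.51-fold higher in the knockdown, while its relative Snai2 was 1.40-fold lower. Zeb2 and Vim were slightly higher at their bright probes, Zeb1 was slightly lower, and Twist1, Twist2 and S100a4 differed by at most 0.11 on the log2 scale. Cdh2 lay close to the background of both arrays. Most epithelial genes, E-cadherin among them, were at or near background on both arrays. Each difference is the normalised log2 value of the knockdown array less that of the control array, and "higher" and "lower" compare these 2 arrays only.

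The targeted gene went with its label: the Cdk8 probe above background read 992.5 in the control against 317.9 with the hairpin, a difference of -1.99, and its other probes were at background. A probe counted as detected above a raw intensity of 94.5 (control array) or 93.7 (knockdown array), limits taken from the dim probes of each array. By this rule 43.7% of all genes on the array were detected on both arrays. The median difference over the 16466 genes detected on at least 1 array was 0.00. The SD between probes of a gene, pooled over 4448 genes with at least 2 detected probes, was 0.22, and it describes probes on the same arrays, not cultures. A probe's brightness depends on its sequence, so levels are compared between arrays and not between genes.

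**Figure D1:**
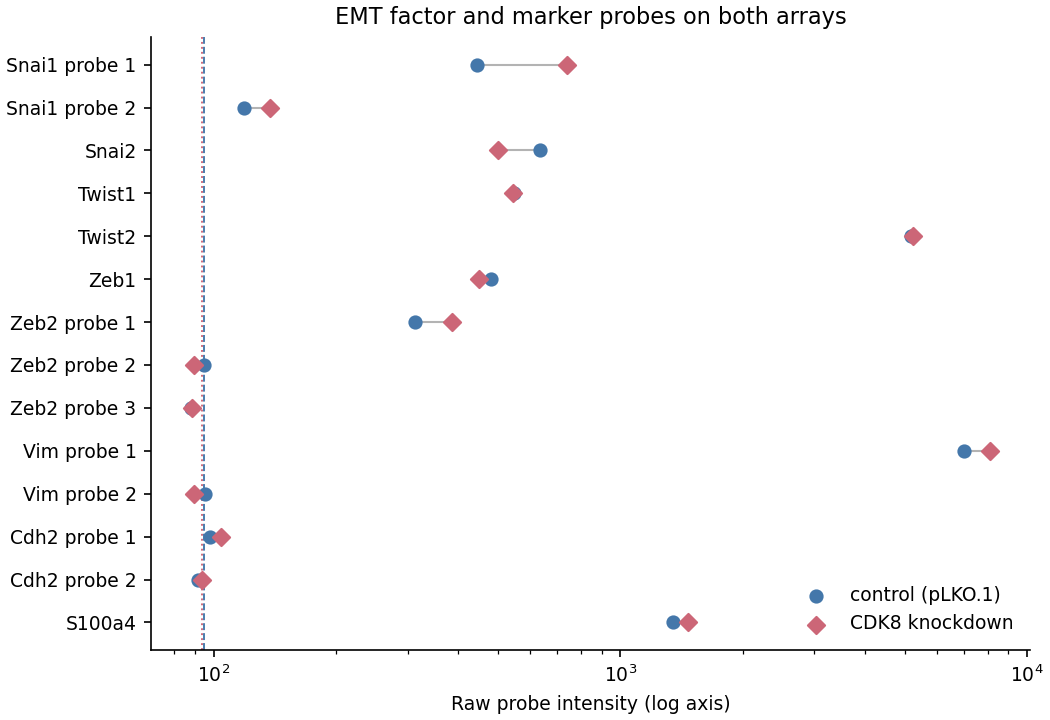
Raw intensity (log axis) of the 14 probes of the 9 EMT genes on the control array (circles) and the knockdown array (diamonds); the vertical lines are the detection limits of 94.5 (control, dashed) and 93.7 (knockdown, dotted). The wide gaps are at Snai1 (444.8 against 740.2) and, the other way, at Snai2 (633.8 against 500.3), while 2 probes passed the limit on the control array alone and 2 on neither array.

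Snai1, the zinc finger repressor often placed at the start of EMT, had 2 probes, and both were higher in the knockdown. The brighter probe read 444.8 in the control and 740.2 in the knockdown, or 8.60 and 9.34 on the normalised log2 scale. This is a difference of 0.74, or 1.67-fold. The dimmer probe read 119 and 137.4, a difference of 0.44. The probes therefore had 1 direction and different sizes, and the gene's value was 0.59 ± 0.21 (SD between probes, n = 2). In the authors' processed table the brighter probe read 260.0 and 438.2. Among the 500 probes closest in level to the brighter one, 10 had a higher difference than Snai1 and 490 a lower one. The central 95% of them ran from -0.57 to 0.62. Of the 500 closest to the dimmer probe, 29 had a higher difference, and 75 differed by at least as much in either direction. Their central 95% ran from -0.87 to 0.63, so the dimmer probe lay inside it. As a gene Snai1 was number 334 from the top of 16466. Of the 9 genes 1 was thus at least 1.5-fold higher and none was at least 1.5-fold lower, where 2.07% of all detected genes were higher and 2.22% lower by that much, 4.29% in either direction. Under 4 alternative settings Snai1 stayed below 1.5-fold, with 0.42 the lowest value, and its sign was the same under all 12. These settings reprocess the same probes of the same 2 arrays, so the kept sign is not a replicate check.

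SNAIL proteins are known to bind E-boxes of the form CACCTG, also in the promoter of Snai1 itself. The promoter of Snai1 is shown because Snai1 had the highest difference of the 9 genes. These are the 250 bases before the gene's start in RefSeq on GRCm38.p6 (chr2:167537945-167538194, plus strand), with capitals marking the E-box CACCTG and the CCAAT box. Both strands were searched, so the E-box may be written CAGGTG and the CCAAT box ATTGG.
Snai1: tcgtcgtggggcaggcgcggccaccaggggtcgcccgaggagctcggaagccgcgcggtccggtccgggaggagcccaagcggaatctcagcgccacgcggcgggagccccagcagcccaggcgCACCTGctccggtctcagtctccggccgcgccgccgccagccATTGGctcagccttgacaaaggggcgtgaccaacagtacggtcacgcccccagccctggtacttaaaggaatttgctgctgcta
The E-box begins at position -126 from the start and the CCAAT box at -84. The same search was run on the windows of 6 of the EMT genes, 9 windows in all, and Snai1 was the only gene of the 6 with this E-box. Over all genes with such a window, 19.4% hold the E-box and 37.5% the CCAAT box. A match is a run of letters and not a measured binding site.

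Snai2, or Slug, the closest relative of Snai1 among the 9 genes, lay on the other side. Its only probe read 633.8 in the control and 500.3 in the knockdown, or 9.18 and 8.69 on the log2 scale. The difference was -0.49, or 1.40-fold lower, short of 1.5-fold. Of the 500 probes closest in level, 15 were lower still and 485 higher. The authors' processed values of the probe were 391.6 and 277.4. The value ranged from -0.50 to -0.43 over 12 alternatives. All of them rest on this 1 probe and several leave its value unchanged, so the kept sign is not a check of its direction. Snai1 and Snai2 thus differed in opposite directions on the same 2 arrays. The third gene of the family, Snai3, was close to background, with 101.5 and 106.5 and a difference of 0.23.

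The TWIST factors differed little. Twist1, which drives mesoderm and cranial development and is often raised in metastatic tumours, read 547.6 in the control against 544.6 with the hairpin, a difference of -0.11. Twist2 read 5191.5 and 5247.0, a difference of -0.05. The raw value of Twist2 was thus slightly higher in the knockdown and its normalised value slightly lower. Both differences were under the SD between probes. Of the 500 probes nearest in level, 333 differed by at least as much as Twist1 in either direction, and 389 by at least as much as Twist2.

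The ZEB factors pointed in different directions at their bright probes. Zeb1 read 480.6 in the control against 450.1 with the hairpin, a difference of -0.22, about the SD between probes. Zeb2, at the brightest of its 3 probes, read 312.2 and 386.1, a difference of 0.30, or 1.23-fold higher. Among the 500 probes closest in level to these, 94 were lower than Zeb1 and 69 higher than Zeb2, so neither stood at the edge of its surroundings. A dim Zeb2 probe read 94.6 in the control, just above the limit there, and 89.5 in the knockdown, which was not above background. Its bound of 1.02-fold lower in the knockdown makes no allowance for noise, so whether this probe differed is unsure. The remaining Zeb2 probe read 88.0 and 88.4, at background on both arrays. With the dim probe averaged in, the gene value of Zeb2 was 0.02. Probes listed under the older symbols of these genes, which carry no gene number and so fall outside the choice by symbol or number, were also dim: Zfhx1a (Zeb1) read 89.1 and 93.8, and Zfhx1b (Zeb2) 91.7 and 95.0.

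Of the mesenchymal markers, Vim encodes the filament protein that replaces keratins as cells become mesenchymal. Its bright probe read 7007.8 in the control and 8130.1 in the knockdown, or 12.77 and 12.92 on the log2 scale. The difference was 0.14, 1.11-fold higher, and 63 of the 500 probes closest in level were higher than it. The other Vim probe, with a symbol but no gene number, read 95.1 in the control, just above the limit, and 89.7 in the knockdown, below it. The bound of 1.04-fold lower there makes no allowance for noise, so whether this dim probe differed is unsure. Averaging both turned the gene value to -0.06, and the sign also turned with the processing while both probes were counted, to 0.03 without background correction, 0.02 with an offset of 50 and 0.08 in the authors' processed values. S100a4, also called FSP1 or metastasin and known for its part in cell motility and metastasis, read 1350.7 and 1465.4, a difference of 0.06. Cdh2 was the dimmest: its brighter probe read 98.0 and 104.5, both only a few units above the limits, a difference of 0.34, and its other probe read 91.7 and 93.5, not detected on either array. In the authors' processed table the brighter Cdh2 probe read 7.8 and 13.6, under the floor of 16 used on that table, where the difference is 0.00. Whether Cdh2 differed was not detectable at this signal.

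Upstream sequences of Vim and S100a4 are printed because both markers were well above background on both arrays and carry a TATA box close to the start, in capitals as TATAAA (both strands were searched, TTTATA being the other), with the CCAAT box also in capitals. Vim lies at chr2:13574061-13574310 and S100a4 at chr3:90603520-90603769, both on the plus strand of GRCm38.p6, from RefSeq.
Vim: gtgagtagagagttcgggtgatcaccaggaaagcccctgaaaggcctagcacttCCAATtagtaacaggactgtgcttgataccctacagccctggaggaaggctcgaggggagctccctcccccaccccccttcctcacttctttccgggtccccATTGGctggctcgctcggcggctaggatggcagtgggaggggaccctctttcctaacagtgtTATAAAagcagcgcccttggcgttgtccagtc
S100a4: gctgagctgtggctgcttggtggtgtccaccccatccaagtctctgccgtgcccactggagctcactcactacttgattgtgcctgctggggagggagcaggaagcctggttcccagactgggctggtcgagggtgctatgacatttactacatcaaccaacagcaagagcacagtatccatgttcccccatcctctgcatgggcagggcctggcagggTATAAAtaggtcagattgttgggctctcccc
The TATA box begins at position -32 in Vim and -31 in S100a4. Of all genes with a window, 14.3% hold this TATA box. Neither window holds the E-box CACCTG.

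**Figure D2:**
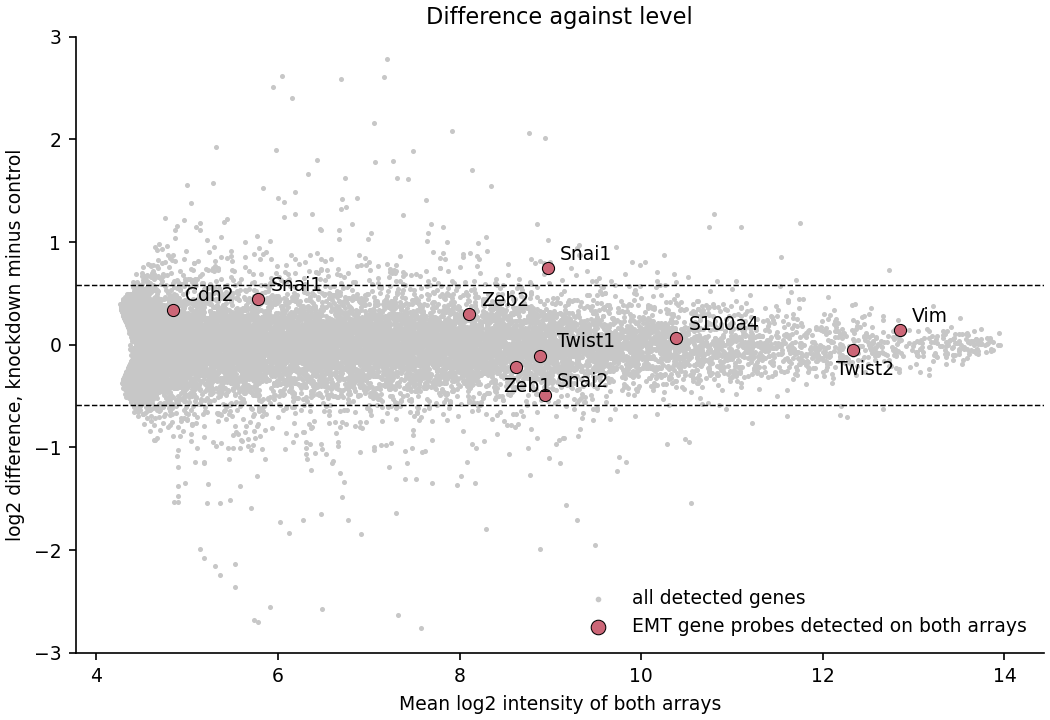
Difference between the arrays (log2, knockdown minus control) against the mean log2 level, for all detected genes (grey) and for the 10 probes of EMT genes detected on both arrays (red); dashed lines mark 1.5-fold. The brighter Snai1 probe at 0.74 lies above the upper line, and Snai2 at -0.49 and the other probes lie between the lines.

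Across the 9 genes the median difference was -0.05, with 4 genes above 0 and 5 below. Beyond the SD between probes, 2 genes were higher (Snai1 and, near background, Cdh2) and 2 lower (Snai2 and, at the margin, Zeb1). This is 22.2% each way, where 20.1% of all detected genes were higher and 19.7% lower by as much. The difference of Cdh2 was 0.00 in the authors' processed values, so its place in this count is unsure. Among the 6 transcription factors the median was -0.08, and among the 3 markers 0.06. At the brightest probe of each gene the median was 0.06. These shares lay near those of all detected genes. The medians over all detected genes of the 6 chromosomes that carry the 9 genes lay between -0.07 and 0.03.

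Detection of epithelial genes is set here beside that of all genes. It gives only a partial view of the state of the cells, as these arrays hold no reference sample of epithelial cells. Of 38 epithelial genes on the array (junction proteins, keratins and epithelial regulators), 11 were detected on both arrays, 28.9% against 43.7% of all genes, and 19 were not detected on either, so that 19 were detected on at least 1 array, where 52.8% of all genes were. Of the 38, 3 (7.89%) reached a raw intensity of 150, against 27.6% of all genes. E-cadherin (Cdh1), the classical target of the SNAIL and ZEB repressors, read 101.5 in the control against 98.6 with the hairpin, a difference of -0.14 just above background. Epcam, Krt18, Krt19 and the claudins Cldn3 and Cldn4 were not detected. Of 12 markers of colon epithelium, 7 (58.3%) were detected on at least 1 array, against 52.8% of all genes, so their detection was not low. None reached 150, against 27.6% of all genes. The median difference of the 7 detected colon markers was -0.03. Past 1.5-fold, 0 of them were higher and 2 lower, where 2.07% and 2.22% of all detected genes were. The 2 were Krt20 (-0.94, from 117.6 to 95.9) and Cdx2 (-0.93, from 138.0 to 107.3), each with 1 dim probe. The others were Cdh1 (-0.14), Lgals4 (-0.03), Krt8 (0.00), Cdx1 (0.02) and Cldn7 (0.10). Epithelial transcripts were thus mostly dim or not detected on both arrays. In bulk RNA, fewer cells of a type and less RNA per cell cannot be told apart.

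Within the epithelial list 9 genes were above 0 and 9 below. The median over the 19 detected genes was 0.00, and over the 11 detected on both arrays -0.14. The epithelial transcription factor Elf3 had 3 dim probes. The probe above background on both arrays read 95.4 and 102.8, a difference of 0.41, and the others, above background with the hairpin alone, were at least 2.15-fold (88.5 and 120.0) and at least 1.44-fold higher. The protease inhibitor Spint1 was above background on the control array alone, and at least 1.45-fold lower with the hairpin. The polarity gene Llgl2 differed by -0.51, from 188.9 to 159. By the 1.5-fold measure 1 of the 19 genes was higher and 1 lower, where 2.07% and 2.22% of all detected genes were; the higher one is Elf3, whose mean includes control values not above background, and the lower one Spint1.

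E-boxes of the SNAIL and ZEB type stand in many of these promoters. Of 23 genes of the list with a window, 15 (65.2%) hold this E-box on either strand in the 250 bases before the start, against 19.4% of all genes with a window. The list was chosen with known SNAIL and ZEB targets in mind, so this share describes the list and is not a test. On the arrays, 7 of the 15 genes with the E-box were not detected on either array, and 4 of the 8 without it. Windows of 30 bases around the site are shown for 5 genes of junctions and keratins, from RefSeq on GRCm38.p6, with the E-box in capitals.
Epcam, chr17:87635948-87635977, strand +: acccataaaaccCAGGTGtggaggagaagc
Krt18, chr15:102027990-102028019, strand +: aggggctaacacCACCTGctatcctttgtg
Cldn4, chr5:134946935-134946964, strand -: ggagctttaactgcagCACCTGtggccgcc
Cldn7, chr11:69965352-69965381, strand +: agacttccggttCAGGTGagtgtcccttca
Ocln, chr13:100552549-100552578, strand -: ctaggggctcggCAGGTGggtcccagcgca
The E-box nearest the start is shown where a window holds several, as in Epcam, Cldn7 and Ocln. These E-boxes begin at position -19 in Epcam, -214 in Krt18, -14 in Cldn4, -57 in Cldn7 and -68 in Ocln, counted from the start. Of these genes, Epcam, Krt18 and Cldn4 were not detected. Cldn7 read 103.6 and 105.8, and Ocln 97.2 and 89.6. None of the 5 reached a raw intensity of 150 on either array.

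Genes used beside the 9 as signs of a mesenchymal state split into higher and lower ones. Of 44 on the array, 39 were detected and their median was -0.02, with 8 at least 1.5-fold higher and 2 at least 1.5-fold lower, where 2.07% and 2.22% of all detected genes were. Acta2, smooth muscle actin, was 3.08-fold higher (1.62 ± 0.25, SD between probes, n = 4), with 351.6 and 1140.5 at its brightest probe. The collagen genes Col1a1 (1.41) and Col1a2 (0.84), the proteoglycan genes Bgn (0.70) and Lum (above background on the knockdown array alone, at least 1.71-fold), fibronectin (Fn1, 0.70), the collagen receptor Ddr2 (0.63) and the homeobox factor Prrx1 (0.59) were the others. Fn1 had probes from -0.09 to 1.08. Prrx1 only just reached 1.5-fold. A dim Prrx1 probe under the older symbol A230024N07Rik, not counted in that value, read 95.3 and 91.8, a difference of -0.19. The growth factor receptor Pdgfrb, at 135.4 and 104.3, and Col3a1 (-0.60) were lower. The matrix genes Vcan (-0.31) and Tnc (-0.13) were below 0, and Tagln, a contractile protein gene, was not detected. The receptor tyrosine kinase Axl (-0.24), the caveolin Cav1 (-0.05) and galectin-1 (Lgals1, -0.02), examples chosen after their values were seen, lay near 0 or below. Other genes of the list were higher but short of 1.5-fold, among them Dcn (0.58), Col5a1 (0.54, from 1728.1 to 2561.3) and Sparc (0.47, from 1524.7 to 2269.3 at its brightest probe). Beyond the SD between probes, 13 genes of the list were higher and 11 lower, where 20.1% and 19.7% of all detected genes were. With probes of at least 150 only, the list had a median of 0.45 over 24 genes. Of 10 fibroblast markers, which share 8 genes with this list, 9 were detected, and their raw intensities at the brightest probe of each of the 10 summed to 3371.0 (control) and 5199.2 (knockdown), with Thy1 not detected; Dcn, from 1788.2 to 3097.7, held most of that gap, Col3a1, Pdgfrb and, above background in the control alone, Postn were lower, and their part in the result was not tested. Without those 8 genes the list had a median of -0.05, with 5 genes higher and 0 lower by 1.5-fold. Of 10 leukocyte markers 3 were detected, Cd14 (869.2 and 906.2), Cd68 (236.7 and 206.2) and Csf1r (99.6 and 99.1), and Ptprc was not. Of 10 endothelial markers 3 dim ones were detected, Kdr, Tie1 and Eng, and Pecam1 and Cdh5 were not. Of all genes, 52.8% were detected on at least 1 array, a larger share than in the leukocyte and endothelial lists. The sums were 1835.0 and 1842.0 for leukocytes and 926.7 and 935.5 for endothelium. These raw sums, and those of the fibroblast markers, include background. For 10 genes at background the sum would be 885.9 (control) and 879.9 (knockdown), so the endothelial sums were mostly background.

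**Figure D3:**
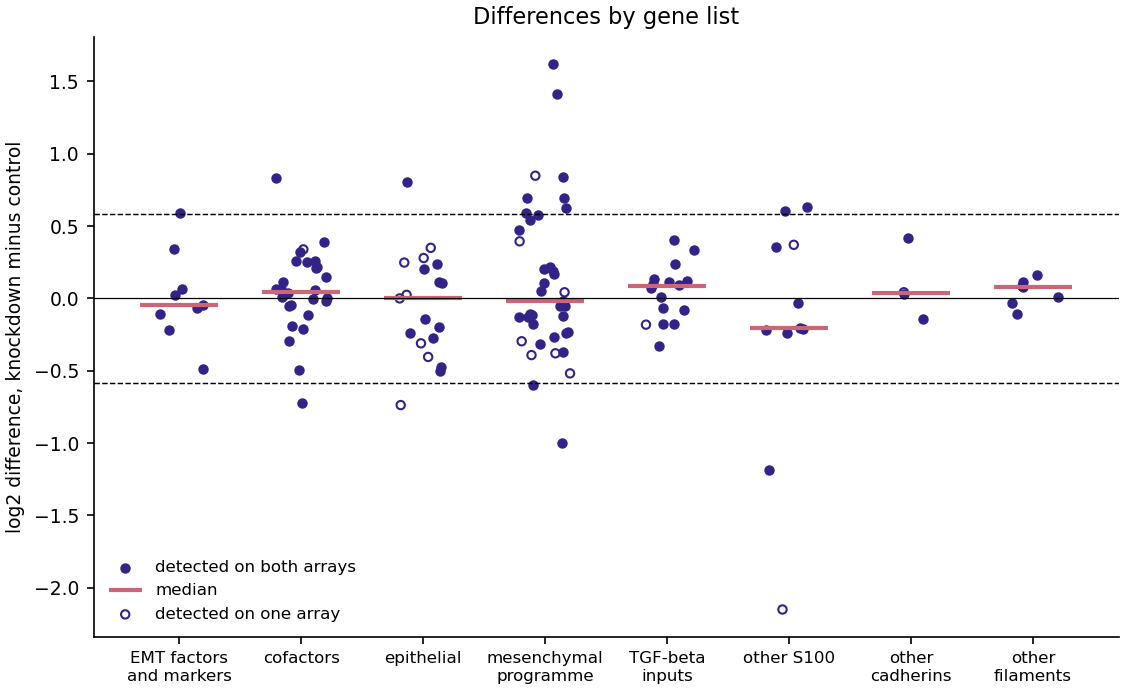
Difference of each detected gene (log2, knockdown minus control) in 8 lists; filled points were detected on both arrays, open points on 1 array, red bars are medians and dashed lines mark 1.5-fold. The medians lie between -0.20 (other S100 genes) and 0.08, and the mesenchymal programme reaches 1.62 (Acta2).

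Proteins that bind, switch off or antagonise the EMT factors had a median of 0.05 over 28 detected genes, with 1 at least 1.5-fold higher and 1 lower, where 2.07% and 2.22% of all detected genes were. ID proteins lack a DNA-binding region and take up the E-proteins that TWIST factors pair with. All 4 of their genes were above 0, where 50.1% of all detected genes were. Id4 differed by 0.83 (126.4 and 172.1), Id3 by 0.39 and Id2 by 0.25. Id1 differed by 0.21, just under the SD between probes. A second Id4 probe, listed under the older symbol Idb4, read 114.6 and 159.8, a difference of 1.01. An Id2 probe under the older symbol Idb2 read 186.8 and 200.6, with a smaller difference of 0.08. Sirt1, a deacetylase known to work with Zeb1, differed by -0.72, from 268.3 to 198.7. Rcor1, the CoREST scaffold that works with the demethylase Kdm1a, differed by -0.50 at 1 probe. At a brighter probe under the older symbol D12Wsu95e (900.8 and 873.7) it differed by only -0.13, and Kdm1a itself differed by -0.04. The E-protein gene Tcf4 differed by 0.06, the Polycomb genes Ezh2 by 0.05 and Suz12 by -0.29, and the kinase gene Gsk3b, whose product marks SNAIL for breakdown, by 0.06.

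TGF-beta signalling is the best known inducer of these factors, through SMAD proteins. Of 18 genes of its ligands, receptors, SMADs, SMAD repressors, latent binding proteins and related genes on the array, 16 were detected, with a median of 0.08, and none of them reached 1.5-fold in either direction. The ligand gene Tgfb1 read 730.2 and 740.8, a difference of -0.06, and Tgfb3 differed by -0.18. The receptor genes Tgfbr1 and Tgfbr2 differed by 0.01 and 0.09, with probes of Tgfbr1 from -0.52 to 0.30, and the co-receptor Tgfbr3 by 0.24. The signal carriers Smad2 and Smad3 differed by -0.18 and 0.12. The largest differences were in the inhibitor Smad6 (0.40), the latent TGF-beta binding protein Ltbp2 (0.33) and the SMAD repressor Skil (-0.33).

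Relatives of the markers gave a further comparison. Of 11 other S100 genes detected, 2 were at least 1.5-fold higher and 2 at least 1.5-fold lower, where 4.29% of all detected genes passed 1.5-fold in either direction. S100a8, a calprotectin subunit, read 153.6 in the control and 89.7 in the knockdown, where it was not above background, and was at least 3.84-fold lower. S100a7a was 2.28-fold lower, from 290.6 to 173.7. The annexin A2 partner S100a10 differed by 0.61 (1130.5 and 1753.5) and the dim S100a16 by 0.63. S100a6 and S100a11 differed by -0.20 and -0.03. Among other cadherins only 4 of 18 (22.2%) were detected on at least 1 array, against 52.8% of all genes. Cdh13 had the largest difference, 0.42 (probes from 0.29 to 0.52), and Cdh11, a cadherin of mesenchymal cells, read 93.4 and 93.7, at the limit. The cytoplasmic partners of cadherins were at 0.04 for alpha-catenin (Ctnna1), 0.15 for beta-catenin (Ctnnb1) and 0.03 for Ctnnd1, which was dim, although a Ctnnd1 probe under the older symbol Catns read 263.4 and 310.9, a difference of 0.23. A Ctnnb1 probe under the older symbol Catnb went the other way, with 133.9 and 117.2 and a difference of -0.49. Of the other filament proteins, desmin (Des) differed by -0.03 near background, Gfap and Prph were not detected, nestin (Nes) differed by -0.11, and the lamins Lmna and Lmnb1 by 0.11 and 0.16. Plec, the linker of vimentin filaments, had a mean of 0.29 over 7 probes between -0.04 and 0.51. Myh9, the non-muscle myosin that S100a4 binds, differed by -0.03.

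**Figure D4:**
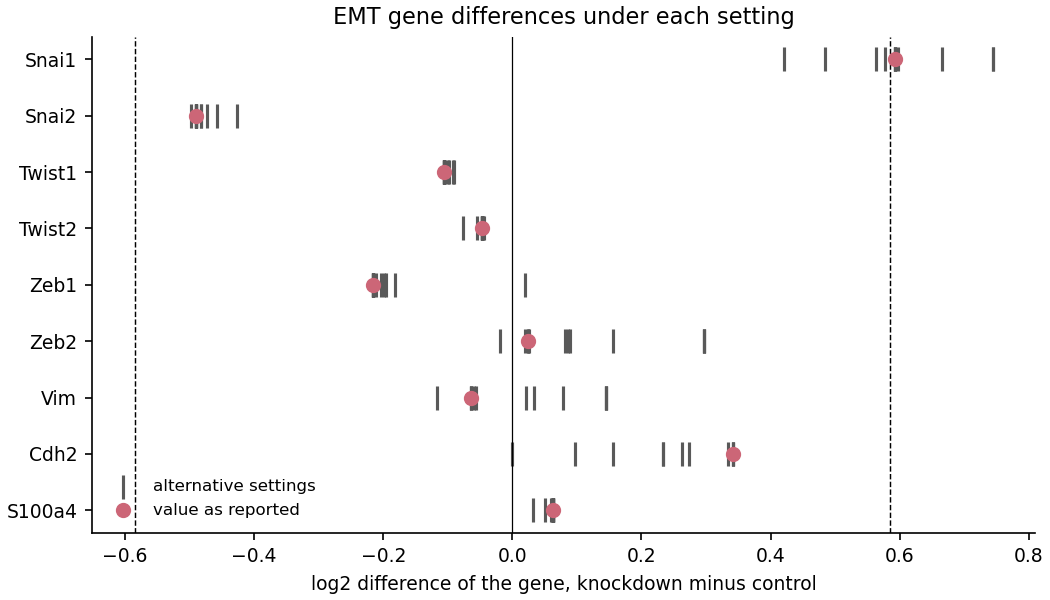
Gene value of each of the 9 EMT genes (log2, knockdown minus control) as reported (red) and under the alternative settings (ticks); dashed lines mark 1.5-fold. Snai1 lies between 0.42 and 0.74 and Snai2 between -0.50 and -0.43, while Zeb1, Zeb2 and Vim have values on both sides of 0.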

How the data were processed

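Total RNA of 1 control and 1 knockdown sample of CT26 was measured on bead arrays. The deposited table holds a raw intensity per probe and array, exported with GSGX 1.9.0 without normalisation or background subtraction, per the file headers. A second deposited table gives the intensity after processing by the authors, on a linear scale, with a median of 3.4 on each array and 29.8% below 0; how they were made, centred or scaled is not given in the sources used here. The number of arrays limits the precision.

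Background was set at the peak of the dim probes (88.6 control, 88.0 knockdown) with the lower side mirrored (SD 2.56 and 2.49). Detection was the upper 1% of it. Intensities were corrected by normexp at these values (limma 3.58.1, R 4.3.3), given an offset of 16, quantile normalised and logged (log2). The offset draws dim differences towards 0. A gene is the mean over probes detected on at least 1 array. A bound for a probe detected on 1 array takes, for the dim array, the lowest detected level there or the probe's own level if that is higher. Such a bound makes no allowance for noise. Of 31508 probes with an Entrez number, 29586 matched RefSeq genes of GRCm38.p6, used for names, chromosomes and promoters; the probes' build is not given in the sources used here. The steps were tested on simulated data. A few items are not reported here. The members, gene lists and rules were chosen with earlier results of these data known. Named were all members, and of each list the genes past 1.5-fold or the 4 with the largest differences, and near relatives; other genes named from the lists were chosen after their values were seen.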

Additional observations from a re-analysis of the deposited data

How the results depend on the processing

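The values of the 9 EMT genes and Cdk8, the counts of EMT genes past 1.5-fold and the medians over the EMT genes and 4 lists were recomputed under 12 alternatives (11 for Cdh2); values of other single genes and their counts were not. The alternatives were raw intensities without background correction, a saddle-point normexp fit, an offset of 50, median scaling, cyclic loess, a 5% detection limit, no filter on dim probes, a raw intensity of at least 150, the brightest probe, the authors' processed values and, chosen after seeing the data, only probes detected on both arrays and probes of older symbols. The count of EMT genes at least 1.5-fold higher went from 1 to 0 without background correction (Snai1 at 0.42), with the saddle-point fit (0.56), with an offset of 50 (0.48) and with median scaling (0.58), and none was 1.5-fold lower in any. With a raw intensity of at least 150 the epithelial median was -0.51 over 3 genes and the mesenchymal programme median 0.45 over 24 genes, fewer genes being left. The other medians moved by less than the SD between probes, and that over the 9 EMT genes lay between -0.08 and 0.06 with either sign. Zeb1 was 0.02 with the older symbol, Zeb2 between -0.02 and 0.30, Vim between -0.12 and 0.14 and Cdh2 between 0.00 and 0.34. Over all genes, 341 were at least 1.5-fold higher and 366 lower, against 99 and 102 without background correction, 140 and 160 with an offset of 50, and 241 and 242 with a raw intensity of at least 150; median scaling gave 291 and 466, with 38.4% of these higher against 48.2%. No paired analysis was possible because each group had 1 array.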

Other observations

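Older and ambiguous gene names on the array touch these genes. Probes listed as Sip1, an older name of Zeb2, carry the gene number of Gemin2, and read 121.2 in the control against 120.6 in the knockdown and 104.4 against 106.9. Probes listed as Tcf3 carry the number of Tcf7l1, not of the E-protein that pairs with TWIST factors; the brighter read 392.9 and 553.8, a difference of 0.48, and the dim one 95.9 and 91.1. The E-protein itself is listed as Tcfe2a, with probes at 112.1 and 110.3, and at 105.9 and 120.3, which differ by -0.08 and 0.51.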
